A study of Caenorhabditis elegans with 16 samples.

Results

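The aminoacyl-tRNA synthetase genes of *Caenorhabditis elegans* were described across 8 groups of first-stage (L1) larvae. The members are all genes whose symbol is a lowercase letter followed by *ars-1* or *ars-2*, which gave 33 of the 46726 genes in the files. RNAseq was done on total RNA of pooled whole worms in 16 samples, 2 for each combination of genotype and nutritional state. The genotypes were *hlh-30(lf)*, which carries the *tm1978* deletion in *hlh-30*, the worm ortholog of the lysosomal regulator TFEB, and wild type (Bristol N2). Fed larvae grew on *E. coli* OP50 and were collected 18 h after eggs were placed on the dishes. Starved larvae hatched and arrested in the salt solution M9, where the study's methods give 33 h of starvation. The remaining groups were starved likewise and then given CeMM, a defined liquid maintenance medium free of bacteria, for 3 h or 15 h. Feeding, age and culture dish differed together between fed and starved larvae, and no group was starved on to the times of refeeding, so these cannot be told apart. In RNA of whole worms, fewer cells of a type and less RNA per cell cannot be told apart either.

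Aminoacyl-tRNA synthetases join each amino acid to its transfer RNA, the step that supplies charged tRNAs to the ribosome. Cytosol and mitochondria each need a set, and the mitochondrial enzymes are encoded in the nucleus and imported. For some amino acids separate genes make the cytosolic and the mitochondrial enzyme, and for others the same gene makes both forms. Uncharged tRNA activates the kinase GCN2, and in mammals the transcription factor ATF4 downstream of it raises the expression of many cytosolic synthetase genes. By established gene function, 13 members were taken as cytosolic, 12 as mitochondrial and 4 (*gars-1*, *hars-1*, *kars-1* and *tars-1*) as making both forms. The compartment of *cars-1*, *yars-1* and *yars-2* was left unassigned, and *cars-2* is annotated as a pseudogene. All 33 passed the filter on low counts, and the smallest count of any member in any sample was 154.

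Total counts per sample ranged from 29205691 to 40955529, and ribosomal RNA genes took 1.10% to 12.9% of them. The targeted gene, *hlh-30*, was measured in libraries labelled as mutant at 419 and 373 CPM when fed, 757 and 737 when starved, 475 and 497 after 3 h and 388 and 376 after 15 h of CeMM, where CPM is the count scaled to a common library total with TMM factors. Wild type had 634 and 678 when fed, 670 and 619 when starved, 674 and 746 after 3 h and 689 and 525 after 15 h. The mutant libraries thus had a lower *hlh-30* count in 3 states but not in the starved state (log2 fold change 0.21 ± 0.11, adjusted p = 0.106). These are counts over the whole gene, which do not resolve the deleted exons, so they do not check the genotype labels. Yolk protein (vitellogenin) genes, which adults express, summed to 64.9, 63.2 and 10.04 CPM in replicate 1 of the starved, 3 h and 15 h wild-type groups, against 0.864 to 3.69 CPM in the other 13 libraries. Numbers of members called without those 3 libraries are given beside each comparison of groups. In those fits the remaining sample of a group is assumed to vary like the other groups. Counts by compartment or class, summed levels, pair ratios and the other gene lists use all 16 samples.

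Genes were compared with each other on an RPKM scale, the scaled CPM per kilobase of exon. In fed wild type the level was highest for *kars-1* (lysine, both forms) at 194 ± 5.50 RPKM and *dars-1* (aspartate, cytosolic) at 159 ± 4.60. Levels, sums and ratios of levels are given as mean ± SD, n = 2, and log2 fold changes and interactions ± standard error. All 17 genes of cytosolic or both forms stood above the 12 mitochondrial genes, of which *iars-2* (isoleucine) was highest at 25.6 ± 0.938 and *rars-2* (arginine) lowest at 8.43 ± 0.412. Pseudogene *cars-2* was lowest of all at 4.71 ± 0.245 RPKM. Starved larvae had another order. In starved *hlh-30(lf)* the highest level was that of *sars-1* (serine) at 275 ± 0.706 RPKM, and *kars-1* stood at rank 17 with 31.5 ± 0.890. In starved wild type *lars-1* (leucine) was highest at 170 ± 2.61 RPKM, and *kars-1* stood at rank 18 with 21.3 ± 2.10.

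Most synthetase genes fell on starvation in wild type. Starved against fed, 24 members fell and 5 rose at an adjusted p of at most 0.05 in edgeR's quasi-likelihood test, where 34.3% of the 17441 genes tested fell and 35.2% rose. The members' median log2 fold change was -0.63, beside 0.05 for all genes tested. Cytosolic genes fell in 9 of 13 cases and rose in 2 (median -0.81), mitochondrial genes fell in 10 of 12 and rose in 1 (median -0.59), and genes of both forms fell in 3 of 4. Without the 3 libraries with vitellogenin counts, 23 members fell and 5 rose.

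The largest falls were those of *kars-1* (-3.19 ± 0.09, adjusted p = 1.24e-14), *nars-1* (asparagine, cytosolic, -2.85 ± 0.10, adjusted p = 1.13e-13) and *fars-1* (the alpha subunit of the cytosolic phenylalanine enzyme, -2.15 ± 0.07, adjusted p = 7.28e-14). Lysine's *kars-1* had 374 and 379 CPM when fed, 68.5 and 65.8 when starved, 101 and 103 after 3 h and 162 and 173 after 15 h in *hlh-30(lf)*. Its wild-type values were 423 and 406 CPM when fed, 42.3 and 48.6 when starved, 201 and 215 after 3 h and 141 and 160.0 after 15 h. In both genotypes the fed samples were the highest and the starved samples the lowest. For *nars-1* the values were 176 and 177 CPM when fed, 94.9 and 93.0 when starved, 266 and 319.7 after 3 h and 138 and 153 after 15 h in *hlh-30(lf)*, and 209 and 195 CPM when fed, 27.1 and 29.0 when starved, 87.4 and 93.0 after 3 h and 67.1 and 75.9 after 15 h in wild type. Starved wild type was the lowest group of *nars-1*, and 3 h *hlh-30(lf)* the highest. For *fars-1* the values were 106 and 111 CPM when fed, 48.7 and 46.5 when starved, 66.0 and 64.3 after 3 h and 58.4 and 57.4 after 15 h in *hlh-30(lf)*, and 118.8 and 116 CPM when fed, 27.6 and 25.3 when starved, 65.6 and 67.5 after 3 h and 47.7 and 47.0 after 15 h in wild type. Its starved samples were below all fed samples in both genotypes.

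The rises in starved wild type comprised those of *rars-2* (1.402 ± 0.0972, adjusted p = 5.50e-10), *cars-1* (cysteine, 1.30 ± 0.08, adjusted p = 6.19e-11) and *rars-1* (cytosolic arginine enzyme, 1.04 ± 0.07, adjusted p = 9.18e-10), followed by *lars-1* (0.88 ± 0.10, adjusted p = 6.42e-07) and *yars-2* (tyrosine, 0.64 ± 0.09, adjusted p = 1.07e-05). Both arginine genes were therefore among them. Mitochondrial *rars-2* had 15.6 and 13.9 CPM when fed, 21.6 and 19.8 when starved, 21.4 and 21.95 after 3 h and 15.1 and 14.3 after 15 h in *hlh-30(lf)*, and 15.4 and 14.4 CPM when fed, 40.0 and 38.9 when starved, 15.8 and 14.4 after 3 h and 15.7 and 18.2 after 15 h in wild type. Starved wild type stood above every other group of *rars-2*. For *rars-1* the values were 147 and 143 CPM when fed, 281 and 292 when starved, 328 and 323 after 3 h and 197 and 210.4 after 15 h in *hlh-30(lf)*, and 154 and 156 CPM when fed, 315 and 319.8 when starved, 161 and 168 after 3 h and 167 and 164 after 15 h in wild type. For *cars-1* they were 84.5 and 87.6 CPM when fed, 263 and 283 when starved, 239 and 237 after 3 h and 99.0 and 103 after 15 h in *hlh-30(lf)*, and 96.7 and 98.0 CPM when fed, 231 and 247 when starved, 99.96 and 103 after 3 h and 104.03 and 98.3 after 15 h in wild type. Both *cars-1* and *rars-1* were still high after 3 h of CeMM in *hlh-30(lf)*, whereas in wild type they were near the fed level by then.

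**Figure D1:**
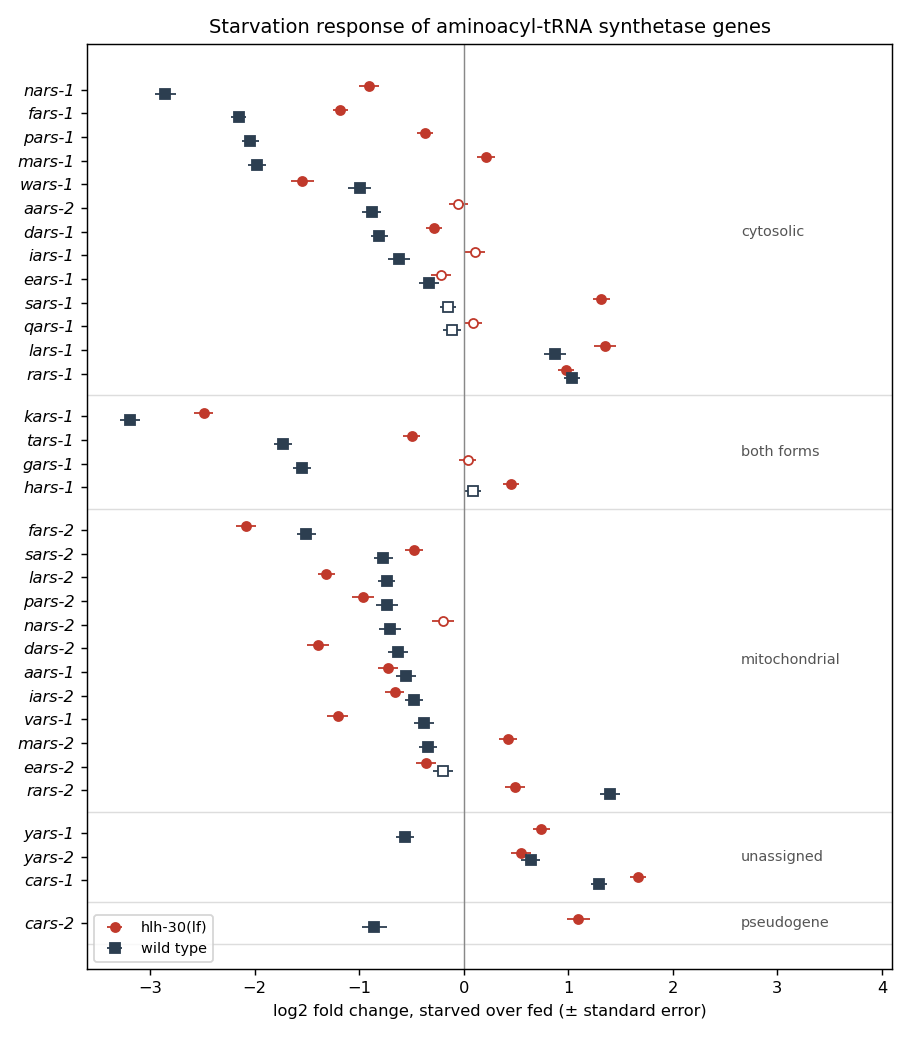
Log2 fold change (± standard error) of each member, starved over fed, in *hlh-30(lf)* (circles, upper of each pair) and wild type (squares), grouped by the form of the enzyme. Filled symbols passed an adjusted p of 0.05. Wild-type values run from -3.19 for *kars-1* to 1.402 for *rars-2*, and the *hlh-30(lf)* values of the cytosolic genes lie mostly to the right of the wild-type ones.

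In *hlh-30(lf)* most mitochondrial genes fell on starvation, whereas the cytosolic genes moved in either direction with a median near 0. Starved against fed, 16 members fell and 11 rose, where 31.4% of all genes tested fell and 34.9% rose. Cytosolic genes fell in 5 of 13 cases and rose in 4 (median -0.05), and mitochondrial genes fell in 9 of 12 and rose in 2 (median -0.69). The members' median was -0.22, beside 0.06 for all genes tested. Without the 3 vitellogenin libraries 18 fell and 10 rose. Of the members, 15 fell in both genotypes, which is 15 of the 24 that fell in wild type and 15 of the 16 that fell in *hlh-30(lf)*. The 5 that rose in wild type also rose in *hlh-30(lf)*. Of all genes tested, 62.7% of those that fell in wild type fell in *hlh-30(lf)* too, 68.5% of those that fell in *hlh-30(lf)* fell in wild type too, and 54.2% of those that rose in wild type rose in *hlh-30(lf)* too.

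Called in opposite directions were 4 members, higher in starved *hlh-30(lf)* and lower in starved wild type, as were 6.3% of all genes tested. No member was called the other way round, as were 4.03% of all genes tested. They were *mars-1* (cytosolic methionine enzyme), *mars-2* (mitochondrial methionine enzyme), *yars-1* (tyrosine) and the pseudogene *cars-2*. For *mars-1* the values were 187 and 188 CPM when fed, 208 and 228 when starved, 531 and 519.8 after 3 h and 110.2 and 122 after 15 h in *hlh-30(lf)*, and 206 and 206 CPM when fed, 49.1 and 55.6 when starved, 119.1 and 124 after 3 h and 104.4 and 98.0 after 15 h in wild type. Its rise in starved *hlh-30(lf)* was small (0.22 ± 0.08, adjusted p = 0.0325) and lost its call in 9 of 11 alternatives (adjusted p = 0.0286 to 0.339), whereas in wild type it changed by -1.98 ± 0.09, adjusted p = 1.57e-12. For *mars-2* the values were 33.8 and 32.4 CPM when fed, 43.8 and 45.0 when starved, 38.2 and 38.6 after 3 h and 34.1 and 33.7 after 15 h in *hlh-30(lf)*, and 34.3 and 32.2 CPM when fed, 26.6 and 25.7 when starved, 26.7 and 28.0 after 3 h and 26.7 and 22.1 after 15 h in wild type. From fed to starved it changed by 0.42 ± 0.09, adjusted p = 2.87e-04 in *hlh-30(lf)* and by -0.35 ± 0.09, adjusted p = 0.0018 in wild type. For *yars-1* the values were 96.4 and 99.3 CPM when fed, 159 and 169 when starved, 176 and 186 after 3 h and 140.1 and 153 after 15 h in *hlh-30(lf)*, and 109 and 107 CPM when fed, 74.1 and 72.1 when starved, 75.1 and 78.4 after 3 h and 73.9 and 64.2 after 15 h in wild type. On starvation it changed by 0.74 ± 0.08, adjusted p = 3.35e-07 in *hlh-30(lf)* and by -0.56 ± 0.08, adjusted p = 1.05e-05 in wild type. *cars-2* had 8.33 and 8.25 CPM when fed, 17.8 and 17.7 when starved, 15.4 and 15.3 after 3 h and 11.9 and 11.7 after 15 h in *hlh-30(lf)*, and 7.92 and 8.52 CPM when fed, 4.82 and 4.27 when starved, 7.11 and 8.58 after 3 h and 8.20 and 8.39 after 15 h in wild type. Its change was 1.10 ± 0.11, adjusted p = 7.57e-08 in *hlh-30(lf)* and -0.85 ± 0.12, adjusted p = 4.82e-06 in wild type. Every starved *hlh-30(lf)* sample of these 4 genes stood above every starved wild-type sample. This follows largely from picking them by opposite calls and is no separate support. *yars-1* and *mars-2* lie 114 bases apart on the same strand of chromosome I.

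Whether the starvation responses differed was tested as the interaction of genotype and starvation, the *hlh-30(lf)* response minus the wild-type response. It was positive in 18 members and negative in 6, where 26.9% of all genes tested were positive and 23.8% negative. Cytosolic genes were positive in 9 of 13 cases and negative in 1, genes of both forms positive in 4 of 4, and mitochondrial genes positive in 2 of 12 and negative in 5. The largest interactions were those of *mars-1* (2.19 ± 0.12, adjusted p = 9.46e-11), *cars-2* (1.95 ± 0.16, adjusted p = 1.45e-08) and *nars-1* (1.94 ± 0.14, adjusted p = 1.82e-09). Negative were *wars-1* (tryptophan, the only cytosolic gene, -0.55 ± 0.15, adjusted p = 0.0055) and the mitochondrial *rars-2*, *vars-1*, *dars-2*, *fars-2* and *lars-2* (from -0.91 to -0.57). Without the 3 vitellogenin libraries 15 were positive and 6 negative.

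**Figure D2:**
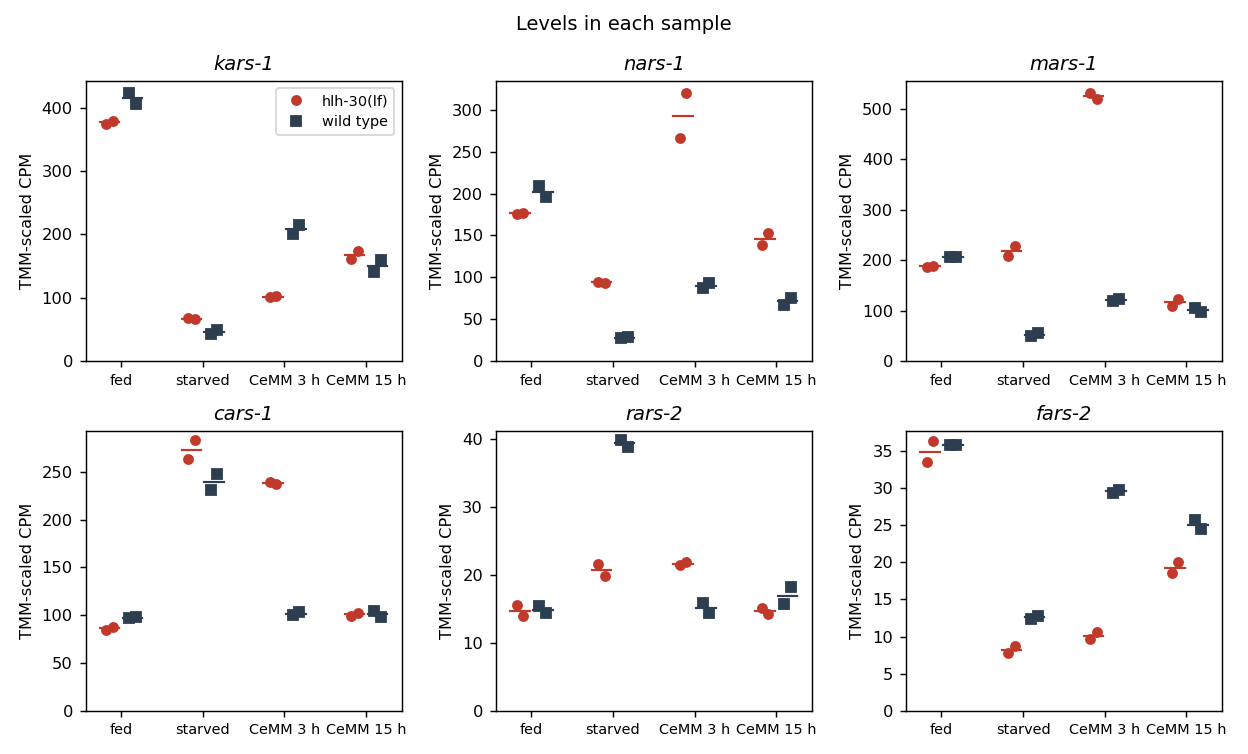
TMM-scaled CPM in each of the 16 samples for 6 members, by state from fed to 15 h of CeMM, with *hlh-30(lf)* (circles) left of wild type (squares) and bars at the group means. In most groups the 2 samples lie close together, and 3 h *hlh-30(lf)* *mars-1* (531 and 519.8 CPM) stands above all its other groups.

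The genotypes were compared directly within each state. In fed larvae none of the members was higher and 2 were lower in *hlh-30(lf)*, where 4.02% of all genes tested were higher and 4.22% lower. The lower ones were *sars-1* (-0.32 ± 0.08, adjusted p = 0.0121) and *aars-2* (cytosolic alanine enzyme, -0.36 ± 0.09, adjusted p = 0.0167). Serine's *sars-1* had 182 and 182 CPM in fed *hlh-30(lf)*, against 231 and 224 in fed wild type, and *aars-2* had 216 and 214 against 283 and 270.1. Neither call held when any 1 of the 4 fed samples was left out, which gave 0 members lower each time. Without the 3 vitellogenin libraries, which are not fed ones, the numbers stayed at 0 higher and 2 lower. In starved larvae *hlh-30(lf)* had 18 members higher and 8 lower, where 33.7% of all genes tested were higher and 31.8% lower. Cytosolic genes were higher in 9 of 13 cases and lower in 1 (*wars-1*), with a median of 0.46, and mitochondrial genes higher in 3 of 12 and lower in 7, with a median of -0.32. The cytosolic *pars-1* (proline) had 169 and 175 CPM in starved *hlh-30(lf)*, against 60.6 and 59.2 in starved wild type, and *sars-1* had 453 and 455 against 206 and 204. Glycine's *gars-1* had 155 and 146 CPM in starved *hlh-30(lf)*, against 55.8 and 58.4 in starved wild type. On the mitochondrial side *dars-2* had 7.61 and 6.81 CPM in starved *hlh-30(lf)*, against 12.7 and 13.5 in starved wild type. These 4 genes were picked after their values were seen.

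After 3 h of CeMM the medians of the cytosolic and mitochondrial genes lay further apart. In *hlh-30(lf)*, 19 members were higher and 10 lower, where 31.7% of all genes tested were higher and 31.5% lower. Cytosolic genes were higher in 10 of 13 cases and lower in 1 (median 0.86), and mitochondrial genes higher in 2 of 12 and lower in 8 (median -0.46). *kars-1* was lower in *hlh-30(lf)* at 3 h (-1.03 ± 0.09, adjusted p = 1.12e-08) although it was higher when starved (0.56 ± 0.09, adjusted p = 2.39e-05), and *rars-2* went the other way (0.52 ± 0.10, adjusted p = 1.44e-04 at 3 h, -0.93 ± 0.09, adjusted p = 1.12e-07 when starved). After 15 h, 17 members were higher and 5 lower, where 22.8% of all genes tested were higher and 21.4% lower. Cytosolic genes were higher in 11 of 13 cases and lower in 0, and mitochondrial genes higher in 1 of 12 and lower in 5. No scaling by normalization factors gave 22 higher and 1 lower, with the median of all genes moved by 0.25, so the calls of lower members at 15 h depend on the scaling. The library with the lowest factor, 0.804, was wild type 15 h replicate 2, where ribosomal RNA took 12.9% of the counts. Its part in this was not tested. Without the 3 vitellogenin libraries the numbers were 15 and 10 when starved, 18 and 9 at 3 h, and 16 and 6 at 15 h.

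Markers of tissues differed between the genotypes as well, and not in the same direction in every state. The 4 intestinal markers summed to 799 and 759 CPM in starved *hlh-30(lf)*, against 2267 and 2611 in starved wild type, with *ges-1* (an intestinal esterase) and *ifb-2* (an intestinal intermediate filament) lower and *elt-2* and *act-5* higher. After 3 h they summed to 1088 and 1074 CPM in *hlh-30(lf)*, against 1764 and 2115 in wild type, and after 15 h to 1685 and 1595, against 1526 and 1614. The 3 body wall muscle markers summed to 9763 and 13854 CPM in starved *hlh-30(lf)*, against 23782 and 23548 in starved wild type. Their order turned round after 3 h, with 12495 and 12344 CPM in *hlh-30(lf)*, against 8230 and 8967 in wild type, and after 15 h, with 12431 and 11869, against 9879 and 9224. By gene, the muscle log2 fold changes ran from -1.28 to 0.15 when starved, -0.04 to 3.02 after 3 h and 0.23 to 0.39 after 15 h. In each of these states 1 of the 3 muscle markers was not called. The 5 germline markers summed to 25.8 and 24.8 CPM in starved *hlh-30(lf)*, against 38.8 and 51.1 in starved wild type, and the 4 neuronal markers to 790 and 773, against 614 and 609.7. Germline sums were lower and neuronal sums higher in *hlh-30(lf)* after 3 h and 15 h too, with no overlap between the genotypes. By gene, the neuronal log2 fold changes ran from -0.26 to 0.89 after 3 h (median 0.02) and from 0.09 to 0.26 after 15 h. At each time 1 of the 4 was called higher, where 31.7% and 22.8% of all genes tested were. No summed list was near 0 in any sample except the vitellogenins. The part of these markers in the synthetase values was not tested.

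**Figure D3:**
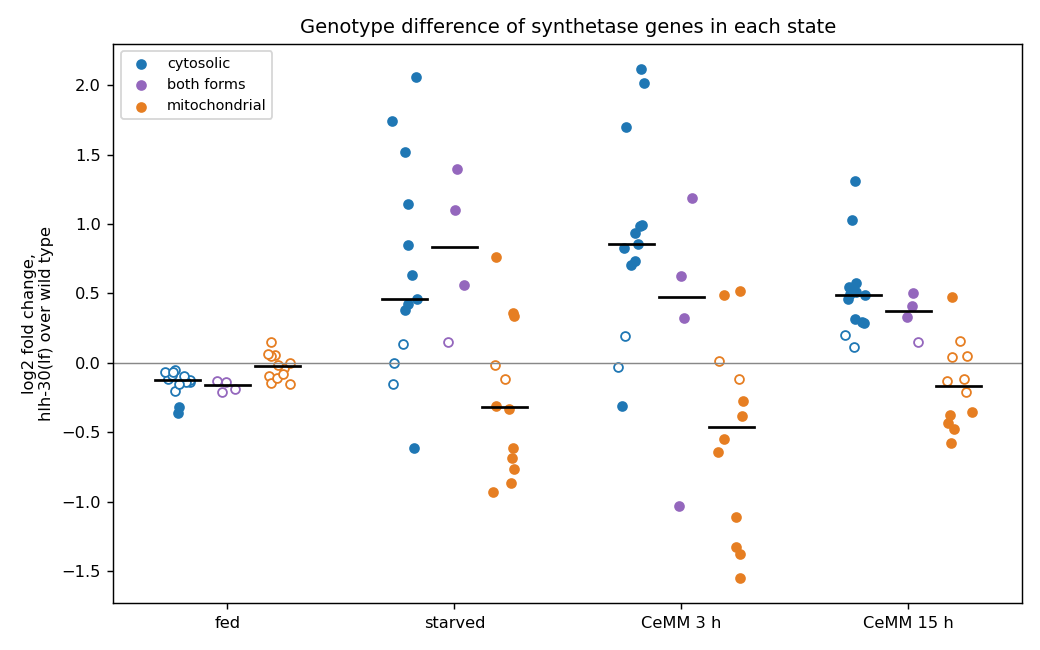
Log2 fold change of each cytosolic, both-forms and mitochondrial member, *hlh-30(lf)* over wild type, in each state. Filled points passed an adjusted p of 0.05 and black bars are medians, which for cytosolic genes were 0.46 when starved, 0.86 after 3 h and 0.49 after 15 h, and for mitochondrial genes -0.32, -0.46 and -0.17.

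Higher after 3 h of CeMM than in starved larvae were mainly cytosolic genes in *hlh-30(lf)*, and mainly mitochondrial and both-forms genes in wild type. In *hlh-30(lf)*, 12 members rose and 2 fell relative to starved larvae (11 and 1 with the replicate number as a block), where 14.3% of all genes tested rose and 16.7% fell. Of these 12, 10 were cytosolic, 1 was mitochondrial (*fars-2*) and 1 was *kars-1*. In wild type 16 rose and 6 fell, where 26.5% of all genes tested rose and 26.8% fell, and the rising genes comprised 4 of 13 cytosolic, 8 of 12 mitochondrial and 3 of 4 of both forms. Of the cytosolic genes there 2 fell (median 0.06), and their rises lay near the share of all genes. The largest rises were 1.64 ± 0.10, adjusted p = 7.34e-10 for *nars-1* and 1.27 ± 0.09, adjusted p = 4.11e-09 for *mars-1* in *hlh-30(lf)*, and 2.19 ± 0.09, adjusted p = 1.60e-12 for *kars-1* and 1.69 ± 0.10, adjusted p = 1.40e-10 for *nars-1* in wild type. The interaction with 3 h of CeMM was positive in 10 members and negative in 12, where 19.2% of all genes tested were positive and 21.3% negative. Of the cytosolic genes 6 were positive and 2 negative, and of the mitochondrial genes 1 was positive and 6 negative. Without the 3 vitellogenin libraries, 12 rose and 2 fell in *hlh-30(lf)*, and 13 rose and 6 fell in wild type, with the interaction positive in 10 and negative in 10.

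After 15 h in *hlh-30(lf)*, 10 members were higher and 11 lower than in starved larvae, where 27.5% of all genes tested were higher and 27.4% lower. In wild type 11 were higher and 7 lower, where 27.3% of all genes tested were higher and 24.6% lower. Without normalization factors the wild-type numbers were 10 and 11, with the median of all genes moved by -0.18. The largest changes in *hlh-30(lf)* were those of *cars-1* (-1.44 ± 0.08, adjusted p = 4.24e-11), *kars-1* (1.32 ± 0.09, adjusted p = 9.32e-10) and *fars-2* (mitochondrial phenylalanine enzyme, 1.23 ± 0.09, adjusted p = 4.01e-09). In wild type they were those of *kars-1* (1.73 ± 0.09, adjusted p = 4.82e-11), *nars-1* (1.35 ± 0.10, adjusted p = 3.45e-09) and *cars-1* (-1.24 ± 0.08, adjusted p = 3.43e-10). For *fars-2* the values were 33.5 and 36.3 CPM when fed, 7.73 and 8.72 when starved, 9.63 and 10.6 after 3 h and 18.6 and 20.0 after 15 h in *hlh-30(lf)*, and 35.8 and 35.7 CPM when fed, 12.4 and 12.8 when starved, 29.3 and 29.7 after 3 h and 25.6 and 24.5 after 15 h in wild type. After 3 h its *hlh-30(lf)* samples were closer to the starved than to the fed level, and its wild-type samples closer to the fed level. The interaction with 15 h of CeMM was positive in 5 members and negative in 10, where 19.4% of all genes tested were positive and 22.1% negative. It was positive in 10 and negative in 6 without normalization factors, with the median of all genes moved by 0.21. Without the 3 vitellogenin libraries *hlh-30(lf)* had 11 higher and 11 lower, and wild type 10 higher and 9 lower, with the interaction positive in 4 and negative in 9. The 3 h and 15 h comparisons of a genotype share their starved samples.

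Summed over all members, the level was 4283 ± 11.97 CPM in fed *hlh-30(lf)* and 4711 ± 84.9 in fed wild type, and 4682 ± 270.3 in starved *hlh-30(lf)* and 3330.1 ± 98.3 in starved wild type. After 3 h it was 5976 ± 92.2 CPM in *hlh-30(lf)* and 3418 ± 116 in wild type, and after 15 h 4422 ± 188 and 3240.3 ± 88.4. The 13 cytosolic genes summed to 4608 ± 74.3 CPM in 3 h *hlh-30(lf)* and 2292 ± 70.6 in 3 h wild type, and the 12 mitochondrial genes to 243 ± 4.49 and 339.7 ± 4.61. Sums over members are given without a test, since members are not replicates.

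For 11 amino acids the cytosolic and the mitochondrial gene could be set against each other within a sample. In fed larvae the log2 ratio of their RPKM levels ran from 1.33 to 3.85 in *hlh-30(lf)* (median 2.46) and from 1.42 to 3.90 in wild type (median 2.78). In starved larvae the *hlh-30(lf)* ratio was above the wild-type one in both samples of each genotype for 10 of the 11 pairs, by a median of 1.10. At 3 h this held for 11 of 11 pairs (median 1.63), at 15 h for 9 of 11 (median 0.67), and in fed larvae for 2 of 11 (median -0.08). In fed larvae 6 of the 11 pairs lay the other way round, with both *hlh-30(lf)* samples below both wild-type samples, by up to -0.42 for alanine and -0.37 for serine. For methionine the log2 ratio of *mars-1* over *mars-2* was 1.35 ± 0.063 in starved *hlh-30(lf)* and 0.06 ± 0.16 in starved wild type. After 15 h it was 0.83 ± 0.12 in *hlh-30(lf)* and 1.12 ± 0.13 in wild type, the pair that lay on the other side. For leucine the ratio was 5.40 ± 0.19 in starved *hlh-30(lf)* and 4.29 ± 0.050 in starved wild type, against 2.74 ± 0.021 and 2.68 ± 0.010 when fed. The glutamate pair had like values in starved larvae (2.59 ± 0.30 in *hlh-30(lf)* and 2.59 ± 0.20 in wild type). These ratios were not tested. How often pairs of other genes were separated between the genotypes in this way was not counted.

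**Figure D4:**
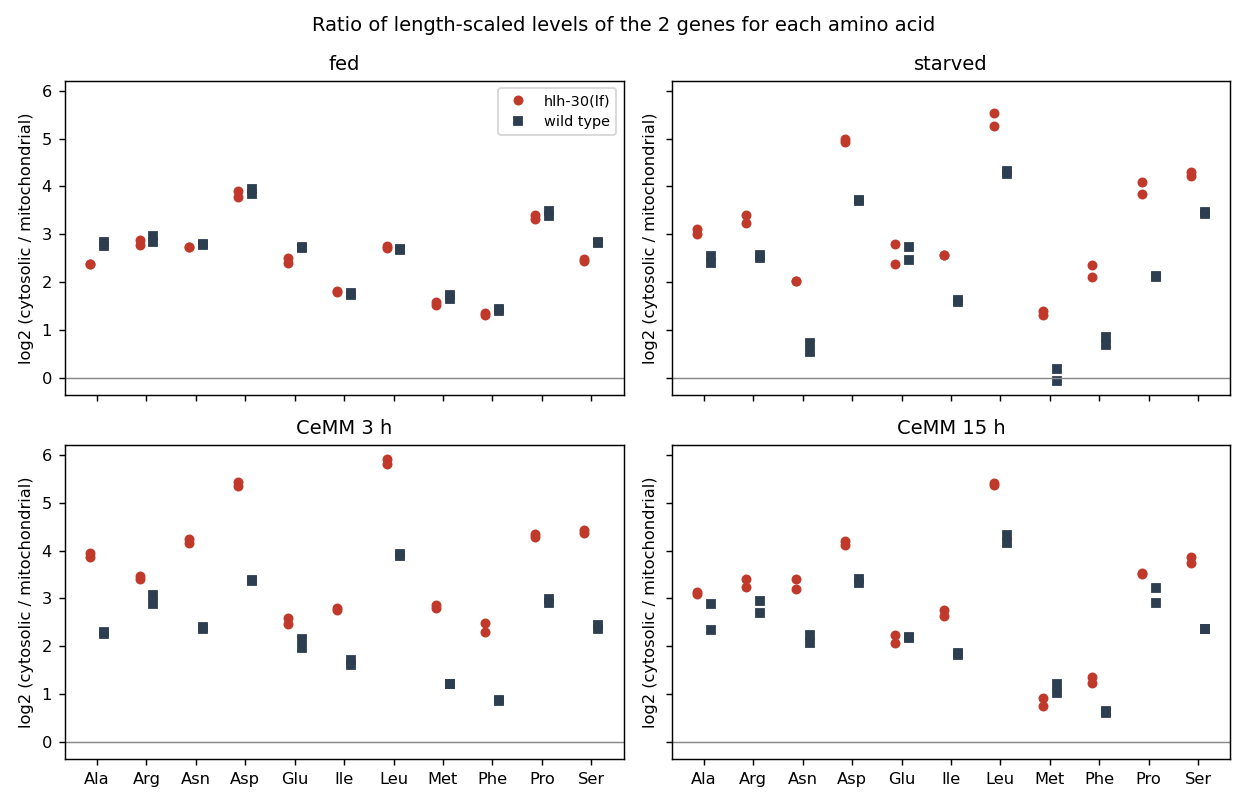
Log2 ratio of the RPKM level of the cytosolic over the mitochondrial gene for 11 amino acids, in each sample, by state, with *hlh-30(lf)* (circles) left of wild type (squares). When fed, the mean ratios differ between the genotypes by -0.42 to 0.06, and the *hlh-30(lf)* points lie above the wild-type ones in 10 of 11 pairs when starved and in all 11 after 3 h.

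The synthetases fall into 2 structural classes, and 17 members belong to class I and 16 to class II. In starved against fed wild type, class II members fell in 14 of 16 cases and rose in 0 (median -0.84). Class I members fell in 10 of 17 and rose in 5 (median -0.35), where 34.3% of all genes tested fell and 35.2% rose. In *hlh-30(lf)* class II members fell in 11 and rose in 2, and class I members fell in 5 and rose in 9. There 31.4% of all genes tested fell and 34.9% rose, so the falls of class I members lay near the share of all genes. The difference between the classes was not tested.

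Other genes of the same steps of protein synthesis were taken from fixed lists. *fars-3*, the beta subunit of the phenylalanine enzyme, and *glp-4*, a valyl-tRNA synthetase, have symbols outside the naming rule. On starvation both fell in both genotypes, *glp-4* by more in wild type (-0.70 ± 0.12, adjusted p = 7.90e-05 in *hlh-30(lf)*, -2.37 ± 0.13, adjusted p = 2.34e-11 in wild type, interaction 1.68 ± 0.18, adjusted p = 2.97e-07). Phenylalanine's *fars-3* changed by -0.58 ± 0.07, adjusted p = 9.18e-07 in *hlh-30(lf)* and -0.21 ± 0.07, adjusted p = 0.0128 in wild type beside -1.18 ± 0.07, adjusted p = 1.03e-10 and -2.15 ± 0.07, adjusted p = 7.28e-14 for its partner *fars-1*. The 4 mitochondrial translation factors fell in 4 of 4 cases in starved *hlh-30(lf)* and 3 of 4 in starved wild type, and after 3 h of CeMM 4 of 4 were lower in *hlh-30(lf)*. Among these 4 factors *tufm-1*, the mitochondrial elongation factor Tu, changed by -1.67 ± 0.09, adjusted p = 1.06e-11 in starved *hlh-30(lf)* and -2.31 ± 0.09, adjusted p = 2.23e-13 in starved wild type. Of the 6 cytosolic elongation factors, 0 rose and 3 fell in starved *hlh-30(lf)*, and 1 rose and 3 fell in starved wild type. On starvation 34.9% of all genes tested rose and 31.4% fell in *hlh-30(lf)*, and 35.2% rose and 34.3% fell in wild type. After 15 h of CeMM 6 of 6 elongation factors were higher than in starved larvae in both genotypes. Of all genes tested 27.5% were higher in *hlh-30(lf)* and 27.3% in wild type. Of 6 measured genes of the amino acid stress pathway, 1 rose and 3 fell in starved *hlh-30(lf)*, and 1 rose and 5 fell in starved wild type. The shares of all genes tested on starvation are those given above for the elongation factors. The riser was *pek-1*, the kinase PERK, and *atf-4* changed by -1.12 ± 0.09, adjusted p = 5.74e-09 in *hlh-30(lf)* and -1.31 ± 0.09, adjusted p = 7.19e-10 in wild type.

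Positions are those of the WBcel235 build as the files give them. *kars-1* (WBGene00002238) spans chromosome II 7070186 to 7072415, *nars-1* (WBGene00003815) chromosome I 7088022 to 7090062, and *fars-1* (WBGene00001497) chromosome I 6211986 to 6214586. *rars-2* (WBGene00004680) spans chromosome II 6125559 to 6127946, *rars-1* (WBGene00004679) chromosome III 4914093 to 4917129, and *cars-1* (WBGene00000800) chromosome I 2623101 to 2628577. *mars-1* (WBGene00003415) spans chromosome IV 11631940 to 11635487, *mars-2* (WBGene00013678) chromosome I 14486877 to 14496502, and *yars-1* (WBGene00013677) chromosome I 14476674 to 14486762. *cars-2* (WBGene00000801) spans chromosome I 2629685 to 2632320, beside *cars-1*, and *fars-2* (WBGene00013361) chromosome V 19898061 to 19907434. By chromosome, 11 of the members lie on I, 4 on II, 6 on III, 8 on IV and 4 on V, with none on X. At most 4.96% of a member's exon length overlapped another gene, and 23 members had no overlap.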

How the data were processed

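RNAseq was done on 16 samples of *C. elegans* L1 larvae, 2 per group. Per the submitters' processing notes, the authors aligned reads with STAR 2.0.4b to WBcel235 and counted them per gene with featureCounts 1.45. The authors deposited raw counts, and a CPM (a share of the total count) and an RPKM value (CPM per kilobase of exon) made from them. CPM and RPKM as deposited were used only to check this arithmetic. A table of gene names gave symbols for 43623 of the 46726 IDs. Of the 33 members, 31 were found there and 2 (*mars-2* and *cars-2*) in a RefSeq table. The study's methods describe replicates in general as biological ones, run at separate times together with their controls, but do not tie the sample numbers to those times.

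Counts were filtered with edgeR's filterByExpr (17441 genes), scaled by TMM and tested with the robust quasi-likelihood test in a model with 1 coefficient per group, with Benjamini-Hochberg adjustment over all genes tested (R 4.3.3, edgeR 4.0.16). The study kept all genes with a count and used limma. The standard error of a log2 fold change is its size over the root of the F statistic. Alternatives were RLE factors, no factors, no filter, DESeq2 1.42.0, limma-voom 3.58.1, the replicate number as a block and each sample left out. After the data were seen, leaving out 3 libraries with vitellogenin counts and a crossed block were added. Plots used matplotlib 3.10.9 and tables pandas 2.3.3 (Python 3.11.15).

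Members and lists were chosen with earlier results of these data known. Values in every sample are given for the 3 largest rises and falls in starved wild type, the 3 largest starvation interactions, members called in opposite directions, and the 3 largest changes at 15 h in each genotype. Compartments came from established gene function, since the tables held no product names. *cars-1*, *yars-1* and *yars-2* were set to unassigned after exon lengths and counts were seen and before any test. *psat-1* of the stress list was not matched. No sequences are shown, since no sequence table was used here. At this depth 0.0733 to 0.103 CPM stand for 3 counts, and such limits take in counting error alone.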

Additional observations from a re-analysis of the deposited data

Results flagged for a closer look

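The results given here differed between the genotypes by a test of the difference itself, the interaction term of edgeR's quasi-likelihood test, taken as the *hlh-30(lf)* response minus the wild-type response. For starvation 18 members had a positive and 6 a negative interaction, beside 26.9% and 23.8% of all genes tested. For 3 h of CeMM 10 were positive and 12 negative, beside 19.2% and 21.3%. For 15 h 5 were positive and 10 negative, beside 19.4% and 22.1%, and without normalization factors 10 were positive and 6 negative.

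Among the members given by sample, the starvation interaction on the log2 scale was 2.19 for *mars-1*, 1.95 for *cars-2*, 1.94 for *nars-1*, 1.30 for *yars-1*, 0.97 for *fars-1*, 0.77 for *mars-2*, 0.70 for *kars-1* and 0.37 for *cars-1*. It was -0.91 for *rars-2* and -0.58 for *fars-2*. The remaining such member, *rars-1*, had -0.06 and did not pass the test. With 2 samples per group no test for outlying samples was run.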

How the results depend on the processing

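Of the alternative values for counts of members, summed levels and ratios, 299 stayed within their limits and 29 moved. Of those for single genes none changed sign, 300 kept their call, and 9, all of *mars-1* in starved *hlh-30(lf)*, lost it. In *hlh-30(lf)* at 3 h against starved, 2 members fell, but 1 with RLE factors, without factors, without the filter on low counts and with the replicate block, and 1 to 3 when a sample was left out. In fed larvae 2 members were lower in *hlh-30(lf)*, but 1 without factors and 0 with any of the fed samples left out. Without factors, 11 in place of 7 members were lower in wild type at 15 h against starved, between the genotypes at 15 h 1 in place of 5 was lower in *hlh-30(lf)*, and the 15 h interaction was positive in 10 in place of 5 and negative in 6 in place of 10, so that in the first and last of these the larger of the higher and lower numbers changed sides. The positive number was 3 without the filter and 3 to 6 when a sample was left out. With RLE factors the summed level in fed *hlh-30(lf)* was 4356 in place of 4283 CPM. The log2 ratio of summed cytosolic over mitochondrial RPKM was 2.51, 3.31, 3.85 and 3.21 in fed, starved, 3 h and 15 h *hlh-30(lf)*, and 2.64, 2.58, 2.39 and 2.50 in wild type. With genes of both forms counted as cytosolic it was 2.97, 3.57, 4.06 and 3.49 in *hlh-30(lf)*, and 3.10, 2.81, 2.76 and 2.83 in wild type. The cause of these shifts was not tested, apart from the choice itself.

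Deviations of same-numbered samples correlated by 0.0088 on average (-0.147 to 0.278 over 28 pairs of groups, above 0.1 in 3 and below -0.1 in 4), and whether equal numbers mark a shared run is not given in the sources used here, so the comparisons have no block. The replicate block changed no other count by more than 1.5 times. The 3 h wild-type samples correlated with the starved ones by -0.128, and with the numbers crossed there 16 members rose and 6 fell, as without a block. With 2 samples per group, differences of the size of the smaller calls rest on the spread shared by all groups.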
